A study of Homo sapiens with 6 samples.

Results

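The genes described here are 49 interferon-stimulated genes, a list of human genes known to be switched on by interferon, measured in the gastric cancer lines AGS and HGC-27. The members were taken by gene symbol from tables of 51103 genes, and all 49 were found. Of them, 44 had enough counts to be tested. MX2, TRIM22, XAF1 and CMPK2 had too few counts, and EPSTI1 had 0 counts in every library. Polyadenylated RNA was sequenced from both lines after lentiviral transduction, either to overexpress NINJ1 or with a negative control, and cells were lysed in Trizol after 48 hours. AGS comes from a gastric adenocarcinoma and HGC-27 from an undifferentiated gastric carcinoma. Each line had 2 libraries labelled NINJ1 and 1 labelled as negative control, and no cells without virus were analysed here. Whether replicates came from separate cultures is not stated, so the spread behind each p-value is that between libraries and may be technical.

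Type I interferons bind the receptor pair IFNAR1 and IFNAR2, whose kinases JAK1 and TYK2 phosphorylate transcription factors such as STAT2. A complex that contains STAT2 and IRF9 binds the interferon-stimulated response element (ISRE) in the promoters of antiviral genes. The products sense viral RNA, block its translation, cut it, or stop virus entry and release, and tumour cell lines often hold a standing level of these transcripts without added virus or interferon.

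For replicate 2 of the NINJ1 libraries the title names one line and the file name the other, in both lines, and the lines used here are those of the file names. As a check, 15 genes that had 100 or more counts in each undisputed HGC-27 library and 0 in each undisputed AGS library were counted in the disputed pair. AGS replicate 2 by file name, which is titled HGC-27, had at least 10 counts of 0 of them, and HGC-27 replicate 2 by file name of 15. For 13 genes present in AGS and at 0 in HGC-27 by the same rule the numbers were 13 and 0. Total counts ran from 12619684 to 18175697 per library. The HGC-27 control stood apart: genes with a GC content above 60% took 2.31% of its counts, against 9.25% to 11.3% in the other 5 libraries, so counts of members called in comparisons with it are given also with a correction for GC content. NINJ1 itself had 19.5 and 15.9 scaled CPM (counts relative to the scaled library total) in the AGS libraries labelled NINJ1 and 28.4 in the AGS control, so its transcript level went against the label in AGS. In HGC-27 it had 17.3 and 19.1 scaled CPM in the libraries labelled NINJ1 and 4.89 in the control (log2 1.89, and 0.58 with GC correction, edgeR adjusted p = 0.0334). Keratin transcripts, which mark epithelial cells, were high in all libraries (KRT8 from 48.6 to 82.8 and KRT18 from 64.6 to 111 FPKM), whereas EPCAM was between 2.57 and 7.93 FPKM, CDH1 at most 0.454 and KRT19 at most 0.0339. The leukocyte markers CD3E and MS4A1 were listed at 0 in every library and PTPRC reached at most 0.00753 FPKM.

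Because an ISRE ties a gene to the interferon pathway, promoter sequences are shown first. Promoters of 39 members were matched in RefSeq (GRCh38.p14), and the 250 bases before each start were searched on both strands for GAAA, any 2 bases and GAAA again. At least 1 match was found in 21 of 39 members (53.8%), compared with 1061 of 35116 promoters in the whole table (3.02%). The longer form, in which CT follows directly and which contains the shorter one, was found in 13 of 39 members (33.3%) and in 0.225% of all promoters. The gamma-activated site TTCNNNGAA was found in 10 of 39 (25.6%) and in 6.57% of all. These are matches of letters, not measured binding. The stretches around the matches of 7 members that were lower in AGS than in HGC-27, in the libraries labelled NINJ1, follow, written 5′ to 3′ along the gene's strand, with the matched letters in capitals (matches that overlap or lie side by side run together, and TTTC pairs are matches on the opposite strand). For IFIH1 the match nearest the start is shown, and a further overlapping pair that begins 159 and 153 bases before the start is not.
LGALS3BP, chr17:78979957-78979996, minus strand: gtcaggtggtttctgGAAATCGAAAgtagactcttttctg
SAMD9, chr7:93118091-93118130, minus strand: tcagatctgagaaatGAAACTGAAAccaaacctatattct
IFIT3, chr10:89327826-89327899, plus strand: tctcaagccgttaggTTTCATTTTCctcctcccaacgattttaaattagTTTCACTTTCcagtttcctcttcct
IFIH1, chr2:162318685-162318720, minus strand: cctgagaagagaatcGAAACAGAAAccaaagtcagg
IFI44, chr1:78649756-78649788, plus strand: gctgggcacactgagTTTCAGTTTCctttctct
IFIT1, chr10:89392492-89392544, plus strand: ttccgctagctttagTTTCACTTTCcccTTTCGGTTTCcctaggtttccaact
ISG15, chr1:1013369-1013414, plus strand: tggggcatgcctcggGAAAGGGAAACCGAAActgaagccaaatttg
IFITM3, an entry inhibitor, and IFI6 are shown because both were lower in the AGS libraries labelled NINJ1 than in their control.
IFITM3, chr11:320871-320927, minus strand: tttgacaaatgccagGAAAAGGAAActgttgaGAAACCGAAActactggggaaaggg
IFI6, chr1:27672261-27672363, minus strand: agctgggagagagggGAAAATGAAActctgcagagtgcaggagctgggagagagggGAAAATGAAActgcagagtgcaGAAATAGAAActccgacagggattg
IFIT5 and PLSCR1 are shown because they also hold a match but did not pass the test between the lines.
IFIT5, chr10:89414508-89414567, plus strand: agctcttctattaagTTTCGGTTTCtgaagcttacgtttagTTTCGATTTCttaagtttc
PLSCR1, chr3:146544662-146544701, minus strand: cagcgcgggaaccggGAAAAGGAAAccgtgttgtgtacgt
In the line comparison described next, a match was present in 17 of 28 matched members that were lower in AGS (60.7%) and in 3 of 8 that did not pass (37.5%). The difference between these shares was not tested.

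Levels per gene length were compared with the authors' FPKM (counts scaled by gene length and library total). Members with at least 1 FPKM numbered 33 and 34 in the AGS libraries labelled NINJ1 and 33 in the AGS control. In HGC-27 they numbered 39 and 39 in the libraries labelled NINJ1 and 33 in the control. The summed FPKM of the 49 members was 407 and 404 in AGS labelled NINJ1 and 545 in the AGS control. In HGC-27 it was 834 and 890.1 in the libraries labelled NINJ1 and 565 in the control. These levels carry no GC correction. BST2 (57.3% GC) and ISG15 (63.4%), which weigh much in the sums, are GC-rich. The HGC-27 control held few counts from GC-rich genes. By mean FPKM over the 3 AGS libraries the highest members were BST2 (112.5), which tethers budding virus to the cell, the entry inhibitor IFITM3 (66.7), the ubiquitin-like protein ISG15 (52.1) and the entry inhibitor IFITM2 (33.3). Over the 3 HGC-27 libraries they were BST2 (106), ISG15 (98.6), IFITM3 (53.0) and IFIT3 (39.4), and IFITM2 stood at 22.6. The order varied between libraries: in the AGS control IFITM3 (106.4) was above BST2 (97.4), and in the HGC-27 control IFIT3 (58.2) was above BST2 (21.8).

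**Figure D1:**
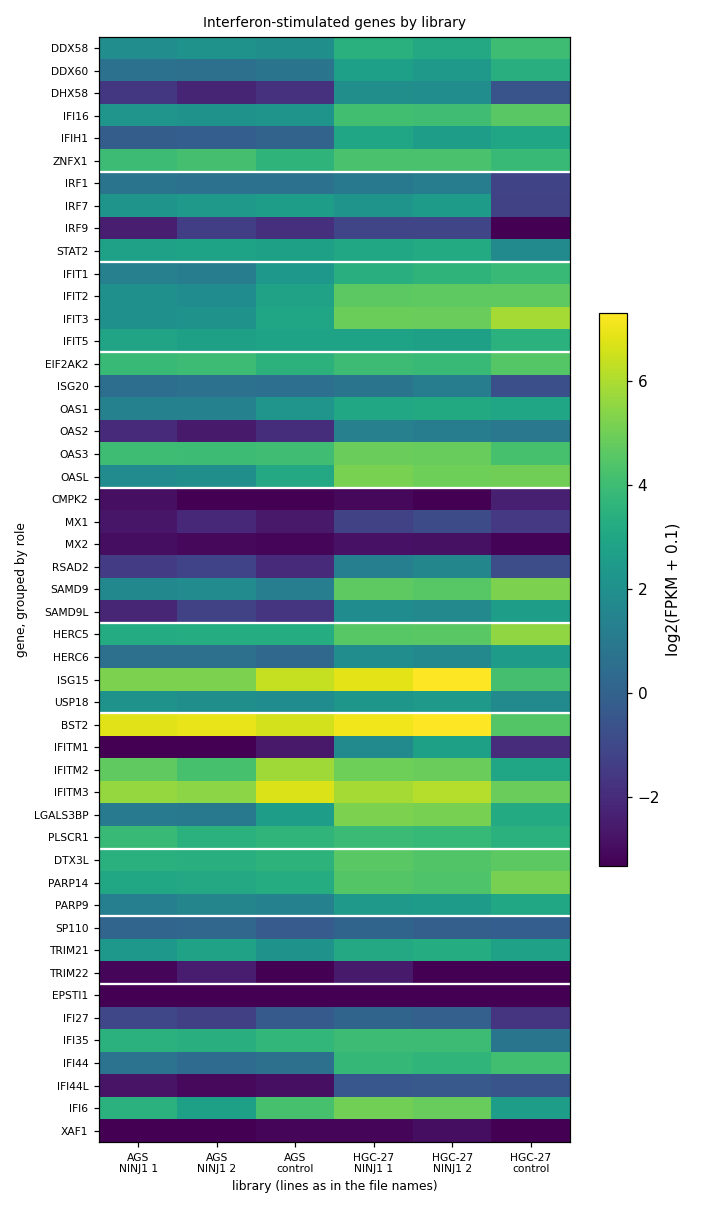
Level of each of the 49 members (rows, grouped by role and separated by white lines) in each of the 6 libraries (columns) as log2(FPKM + 0.1), the authors' FPKM with a pseudocount of 0.1. The IFIT1, IFIT2, IFIT3, SAMD9, SAMD9L and PARP rows and the sensor rows other than ZNFX1 are darker in the 3 AGS columns than in the 3 HGC-27 columns, and ISG15, BST2, IFITM2 and IFITM3 are bright in most columns.

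The first comparison asked how the standing level of the members differed between the lines, using the libraries labelled NINJ1, 2 per line. In these libraries the interferon-stimulated genes were lower in AGS than in HGC-27 across almost every role. Of 44 tested members 33 were lower and 0 higher (edgeR's quasi-likelihood test, Benjamini-Hochberg adjusted p under 0.05 over 17617 genes). Among all tested genes 20.0% were lower and 20.2% higher. The median log2 difference of the members was -1.35, compared with -0.006 for all genes. With GC correction the same 33 members and a further pair, STAT2 and PLSCR1, were lower. Among all genes 22.6% were then lower and 21.3% higher. In the controls alone, described below, part of the members were higher in AGS. Cell type markers also differed between the lines. Of 4 mesenchymal markers 2 were higher in AGS (VIM and ZEB1) and 1 lower (FN1, log2 -4.37). Of 4 tested fibroblast and endothelial markers 2 were lower (COL1A1 and DCN). DCN had 0 and 0 counts in AGS against 4 and 5 in HGC-27. Of 4 tested epithelial markers CDH1 alone was lower (log2 -3.38), with 3 and 0 counts in AGS against 20 and 18 in HGC-27. Their part in the result was not tested. In bulk RNA, fewer cells that express a gene and less RNA per cell cannot be told apart. Without AGS replicate 2 the count of lower members was 29, without HGC-27 replicate 2 it was 32, and with the lines as titled it was 0.

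**Figure D2:**
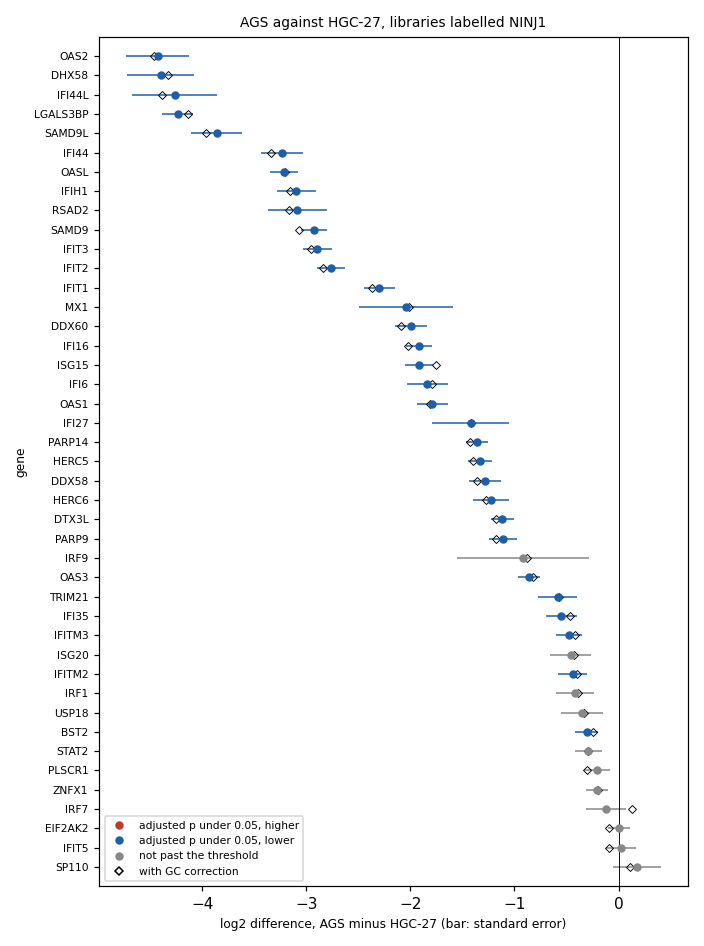
Log2 difference, AGS minus HGC-27, between the libraries labelled NINJ1 (2 per line) for 43 tested members. Filled points with bars are the edgeR estimate ± standard error, coloured by call, and open diamonds are the estimate with GC correction. IFITM1 is left out because AGS had 0 counts. From OAS2 at -4.43 to BST2 at -0.31 nearly all points are to the left of 0, and the diamonds lie close to the points.

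Among the cytosolic sensors 5 of 6 were lower. IFIH1 (MDA5, a sensor of long double-stranded RNA) had 3.81 and 3.96 scaled CPM in AGS labelled NINJ1 and 4.802 in the AGS control, against 36.3 and 30.3 in HGC-27 labelled NINJ1 and 49.1 in its control. All 3 AGS libraries lay below all 3 HGC-27 libraries, and the log2 difference was -3.10 (SE 0.18, edgeR adjusted p = 1.47e-15). IFI16, a sensor of DNA, had 23.1 and 21.6 scaled CPM in AGS labelled NINJ1 and 23.2 in the AGS control, against 85.4 and 83.5 in HGC-27 labelled NINJ1 and 159.5 in its control. IFI16 was therefore nearly flat within AGS and 3.78-fold lower there than in HGC-27 (log2 -1.92, SE 0.12, edgeR adjusted p = 1.45e-14). DDX58 (RIG-I), DDX60 and DHX58 (LGP2) were lower by log2 -1.28, -1.99 and -4.40. ZNFX1 did not pass (log2 -0.21, edgeR adjusted p = 0.134).

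In the IFIT family, which binds viral RNA and stops its translation, 3 of 4 were lower. IFIT3 had 9.78 and 10.4 scaled CPM in AGS labelled NINJ1 and 19.8 in the AGS control, against 75.9 and 74.5 in HGC-27 labelled NINJ1 and 192.5 in its control. IFIT2 had 15.2 and 13.6 in AGS labelled NINJ1 and 27.8 in the AGS control, against 94.9 and 100.8 in HGC-27 labelled NINJ1 and 131 in its control. IFIT1 had 10.5 and 9.64 in AGS labelled NINJ1 and 22.5 in the AGS control, against 45.6 and 53.3 in HGC-27 labelled NINJ1 and 81.4 in its control. In each of the 3 the order was the same, with AGS labelled NINJ1 lowest, then the AGS control, then HGC-27 labelled NINJ1, and the HGC-27 control highest. These levels carry no GC correction. With it the sign of the IFIT2 change within HGC-27 turned, while IFIT3 stayed lower there. The log2 differences between the lines were -2.89 (SE 0.14, edgeR adjusted p = 2.84e-18) for IFIT3, -2.77 (SE 0.13) for IFIT2 and -2.30 (SE 0.15) for IFIT1. IFIT5 did not follow its relatives, with 372 and 350 counts in AGS labelled NINJ1 and 395 in the AGS control, against 413 and 395 in the more deeply sequenced HGC-27 libraries labelled NINJ1 and 805 in the HGC-27 control (log2 between the libraries labelled NINJ1 0.02, SE 0.14, edgeR adjusted p = 0.913).

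Of the enzymes that cut RNA or stop translation 4 of 6 were lower. OASL, a relative of the oligoadenylate synthetases that lacks their activity, had 11.4 and 12.9 scaled CPM in AGS labelled NINJ1 and 28.9 in the AGS control, against 120.4 and 106 in HGC-27 labelled NINJ1 and 139.6 in its control. OAS2, which makes the oligoadenylates that activate RNase L, had 0.822 and 0.432 in AGS labelled NINJ1 and 0.989 in the AGS control, against 14.3 and 12.9 in HGC-27 labelled NINJ1 and 14.1 in its control. Both were separated by line in every library, by log2 -3.22 (SE 0.14, edgeR adjusted p = 1.7e-19) for OASL and -4.43 (SE 0.30) for OAS2. OAS1 and OAS3 were lower by log2 -1.79 and -0.86. EIF2AK2 (PKR, the kinase that halts translation on double-stranded RNA) had a log2 difference of 0.01 (SE 0.11), and the nuclease ISG20 one of -0.46 (edgeR adjusted p = 0.0612).

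Of the MX genes and other inhibitors of viral replication all 4 tested members were lower. SAMD9, a restriction factor of poxviruses, had 19.7 and 22.2 scaled CPM in AGS labelled NINJ1 and 15.04 in the AGS control, against 165 and 154 in HGC-27 labelled NINJ1 and 317 in its control. Its neighbour SAMD9L had 0.822 and 2.23 in AGS labelled NINJ1 and 1.41 in the AGS control, against 23.7 and 21.2 in HGC-27 labelled NINJ1 and 53.3 in its control. The lines did not overlap in either gene, and the log2 differences were -2.93 (SE 0.12, edgeR adjusted p = 1.16e-19) and -3.86 (SE 0.25). RSAD2 (viperin) and MX1 were lower by log2 -3.08 and -2.04. All 5 tested members of the IFI group were lower, among them IFI44, a protein of unsettled function, with 2.99 and 2.38 scaled CPM in AGS labelled NINJ1 and 2.89 in the AGS control, against 26.2 and 24.4 in HGC-27 labelled NINJ1 and 43.3 in its control (log2 -3.23, SE 0.20). IFI44L was lower by log2 -4.27, IFI6 by -1.84, IFI27 by -1.42 and IFI35 by -0.55.

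In the ISG15 system, in which ISG15 is attached to other proteins, 3 of 4 were lower. ISG15 had 32.5 and 33.3 scaled CPM in AGS labelled NINJ1 and 76.5 in the AGS control, against 106 and 143 in HGC-27 labelled NINJ1 and 21.5 in its control. The libraries labelled NINJ1 differed by log2 -1.92 (SE 0.13, edgeR adjusted p = 7.53e-14), but the HGC-27 control was the lowest of all 6. The ligase HERC5 and its relative HERC6 were lower by log2 -1.33 and -1.23, and USP18, which removes ISG15, had a log2 difference of -0.35 (edgeR adjusted p = 0.173). The PARP9 and DTX3L pair, which act together on histones and viral proteins, and PARP14 were all lower, by log2 -1.11, -1.12 and -1.36.

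Among the membrane and entry factors 5 of 6 were lower. LGALS3BP (galectin-3-binding protein, ENSG00000108679, GRCh38 chromosome 17, 78971238 to 78980109, minus strand), a secreted glycoprotein, had 6.72 and 6.33 scaled CPM in AGS labelled NINJ1 and 20.9 in the AGS control, against 125 and 121 in HGC-27 labelled NINJ1 and 40.5 in its control. It had the smallest p of all members, 18.9-fold lower in AGS (log2 -4.24, SE 0.15, edgeR adjusted p = 1.03e-21). IFITM1 had 0 and 0 counts in AGS labelled NINJ1 and 1 in the AGS control, against 50 and 107 in HGC-27 labelled NINJ1 and 3 in its control, and was at least 22.9-fold lower in AGS labelled NINJ1 with 3 counts taken as the limit per library at 0. Of its exonic bases 32.5% are shared with IFITM2, so reads could be split between them. IFITM3, IFITM2 and BST2 were lower by small amounts (log2 -0.48, -0.44 and -0.31). The calls of IFITM2, IFITM3 and IFI35 ended without AGS replicate 2 (edgeR adjusted p from 0.0879 to 0.467), and that of BST2 without either AGS replicate or HGC-27 replicate 2 (edgeR adjusted p of at most 0.382). The transcription factors were the 1 role with 0 of 4 lower and 0 higher, with log2 differences of -0.29 for STAT2, -0.41 for IRF1, -0.12 for IRF7 and -0.92 for IRF9, the last at 1.34 scaled CPM or less and with 48.4% of its exonic bases shared with a neighbouring readthrough gene. Of the 2 tested TRIM and nuclear-body genes TRIM21 was lower (log2 -0.58, a call that ended without AGS replicate 1 at an edgeR adjusted p of 0.323) and SP110 did not pass (log2 0.18).

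Over all 6 libraries, with treatment as an additive term, 21 of 44 members were lower in AGS and 0 higher (edgeR), against 2.87% and 3.27% of all genes. The median log2 difference was -1.48, compared with 0.08 for all genes. It uses the libraries of the comparison above and is not independent of it. The count was 12 when both disputed libraries were left out. It was 5 without HGC-27 replicate 1, 9 without HGC-27 replicate 2, 6 without AGS replicate 1 and 8 without AGS replicate 2, and 33 without either control. Without 1 control the line difference rests on the libraries labelled NINJ1 alone, so the count of 33 repeats the comparison above. With GC correction 27 members were lower, against 11.1% of all genes. In 28 of 44 tested members all 3 AGS libraries lay below all 3 HGC-27 libraries, and in 0 above them, whereas 15.7% of all genes lay below and 18.5% above in this way.

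The controls alone, 1 library per line, gave 28 members lower and 12 higher in AGS (edgeR, with the spread taken from the libraries labelled NINJ1), against 28.9% and 37.0% of all genes. The sensors, the IFIT family, the PARP genes and the SAMD9 genes were lower. SAMD9 was at log2 -4.40 and IFIT3 at -3.28 (-3.70 and -2.89 with GC correction). ZNFX1 and IFIT5 were among them, though neither passed between the libraries labelled NINJ1. With GC correction the sensors stayed lower, but the IFIT family no longer did throughout. Those higher in AGS were the 4 transcription factors, ISG15, ISG20, BST2, IFITM2, IFITM3, IFI6, IFI27 and IFI35. The median GC content of the 12 higher members was 55.8% and that of the 28 lower ones 43.3%. With GC correction 29 were lower and 6 higher, against 28.5% and 26.4% of all genes. ISG15 then had a log2 difference of -0.62 in place of 1.83.

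The second comparison asked what changed with the NINJ1 label inside AGS, 2 libraries against 1. Of 44 tested members 10 were lower and 2 higher in the AGS libraries labelled NINJ1 than in the AGS control (edgeR, adjusted p under 0.05), against 9.30% and 5.73% of all genes. By role, 3 of 4 IFIT genes were lower, 3 of 6 membrane and entry factors, 2 of 6 enzymes that cut RNA or stop translation, 1 of 4 genes of the ISG15 system and 1 of 5 of the IFI group. The sensors and the inhibitors of viral replication each had 1 member higher and 0 lower, and 0 of the 4 transcription factors, 3 PARP and DTX3L genes and 2 TRIM and nuclear-body genes passed. Whether the roles differ was not tested. The median log2 difference of the members was -0.10, and -0.095 without IFITM1, and that of all genes was 0.004. The direction refers to the labels, since NINJ1 itself was lower in the libraries labelled NINJ1 (log2 -0.68, SE 0.19, edgeR adjusted p = 0.0148).

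**Figure D3:**
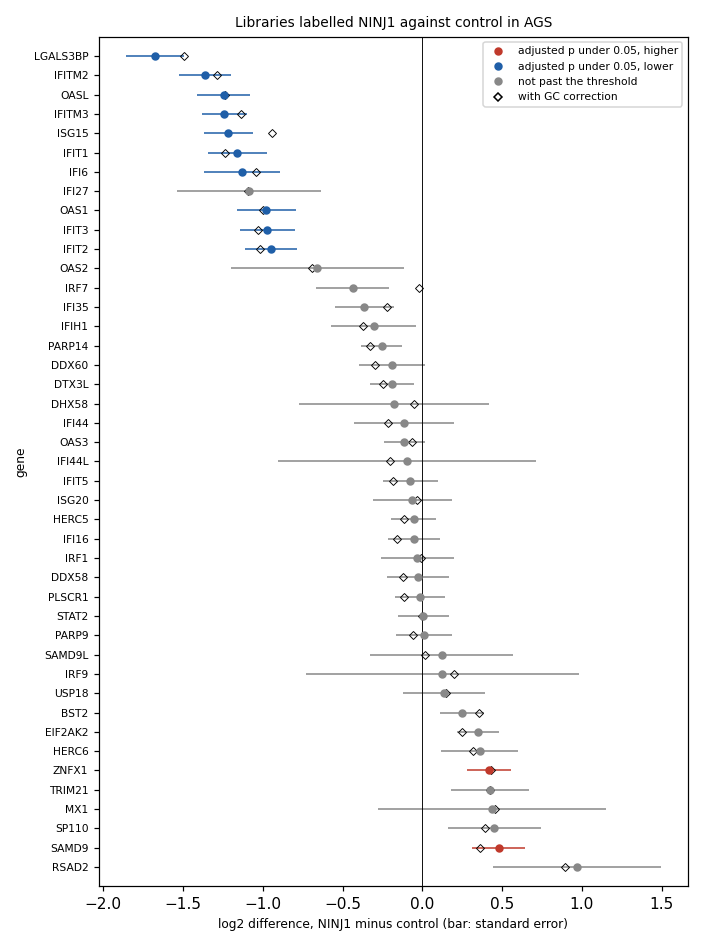
Log2 difference, libraries labelled NINJ1 minus control in AGS (2 libraries against 1), for 43 tested members. Filled points with bars are the edgeR estimate ± standard error, coloured by call, and open diamonds are the estimate with GC correction. Lower calls run from LGALS3BP at -1.68 to IFIT2 at -0.95, and the 2 higher calls, ZNFX1 and SAMD9, are at 0.42 and 0.48. IFITM1 is left out because its counts were at or under 1.

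LGALS3BP, with the levels given above, was 3.20-fold lower in AGS labelled NINJ1 (log2 -1.68, SE 0.18, edgeR adjusted p = 2.58e-08). IFITM3 (ENSG00000142089, GRCh38 chromosome 11, 319669 to 327537, minus strand), which blocks fusion of viruses in endosomes, had 63.2 and 56.4 scaled CPM in AGS labelled NINJ1 against 141 in the AGS control. The related IFITM2 had 38.1 and 27.2 against 83.9 in the AGS control. Both libraries labelled NINJ1 lay below the control in each case, by log2 -1.24 (SE 0.14, edgeR adjusted p = 7.21e-08) and -1.36 (SE 0.16, edgeR adjusted p = 1.92e-07). ISG15 and OASL, both ubiquitin-like proteins, were lower by log2 -1.22 (SE 0.16, edgeR adjusted p = 7.2e-07) and -1.25 (SE 0.17, edgeR adjusted p = 1.29e-06).

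IFIT1 was 2.23-fold lower (log2 -1.16, SE 0.18, edgeR adjusted p = 2.26e-05), and IFIT2 and IFIT3 by log2 -0.95 and -0.97. OAS1 had 11.4 and 11.5 scaled CPM in AGS labelled NINJ1 against 22.6 in the AGS control (log2 -0.98). IFI6, a mitochondrial and endoplasmic reticulum protein that limits flavivirus replication, had 8.96 and 5.33 against 15.6 in the AGS control (log2 -1.13, SE 0.24), and its call ended without AGS replicate 2 (edgeR adjusted p = 0.0834). The other 9 lower members kept their calls without either AGS replicate. With GC correction 11 members were lower and 2 higher, against 10.2% and 8.50% of all genes, and all 10 remained lower, by log2 -0.942 to -1.497. The further lower member was PARP14 (log2 -0.33 with GC correction, edgeR adjusted p = 0.0218), BST2 was then called higher (0.36, edgeR adjusted p = 0.02), ZNFX1 stayed higher (0.43) and SAMD9 lost its call (0.36, edgeR adjusted p = 0.0774). An ISRE match was present in the promoters of 6 of the 7 lower members with a RefSeq match (85.7%) and in 13 of 28 that did not pass (46.4%), a difference that was not tested.

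**Figure D4:**
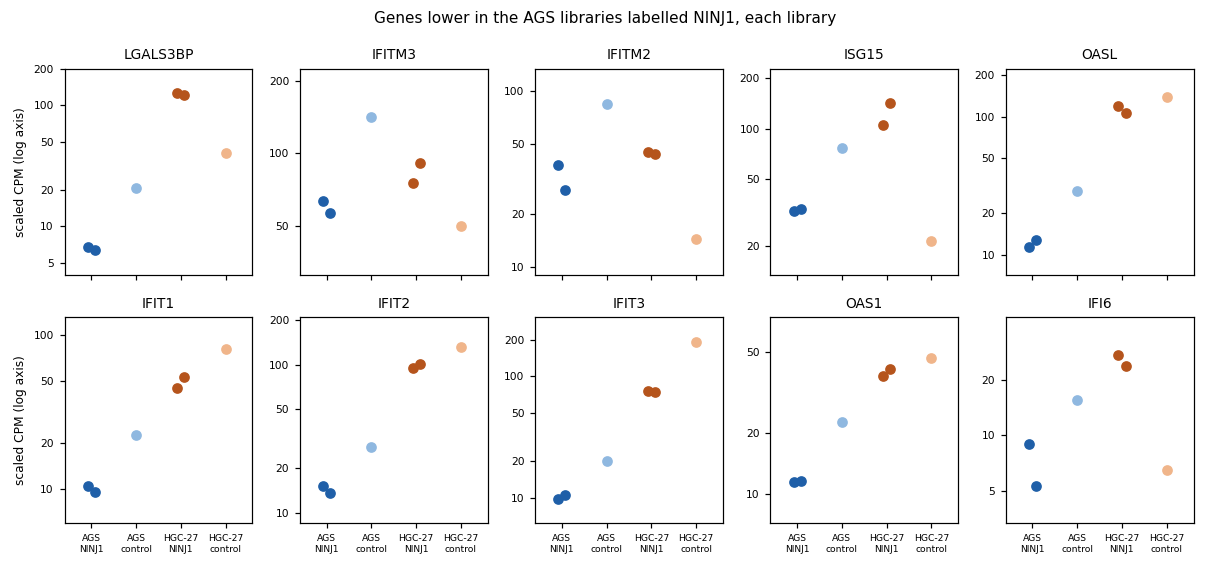
Scaled CPM (log axis) in each library of the 10 members that were lower in the AGS libraries labelled NINJ1, 1 point per library, by line and label. In each panel both AGS points labelled NINJ1 lie below the AGS control, as in IFITM3 with 63.2 and 56.4 against 141. The HGC-27 points labelled NINJ1 lie above their control in ISG15, LGALS3BP, IFITM2, IFITM3 and IFI6 and below it in OASL, OAS1 and the IFIT genes.

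The 2 members that were higher in AGS labelled NINJ1 were ZNFX1, an RNA sensor at the mitochondrial surface (135 and 160.2 scaled CPM against 111 in the control, log2 0.42, edgeR adjusted p = 0.0344), and SAMD9 (log2 0.48, edgeR adjusted p = 0.0487). Neither kept its call with DESeq2 or without either AGS replicate. Among those that did not pass were DDX58 (log2 -0.03, SE 0.19), IFI16 (-0.05, SE 0.16), STAT2 (0.01, SE 0.16), IRF1 (-0.03, SE 0.23), HERC5 (-0.05, SE 0.14) and IFI44 (-0.11, SE 0.31). IFI27 had 1.49 and 1.22 scaled CPM in AGS labelled NINJ1 against 2.90 in the control (log2 -1.09, SE 0.45, edgeR adjusted p = 0.101). The mitochondrial share of counts was 3.19% and 2.78% in AGS labelled NINJ1 and 5.00% in the AGS control. Some markers of other cell types also differed between AGS labelled NINJ1 and its control, and the lists did not move together. Of 4 tested fibroblast and endothelial markers 3 were lower and 0 higher (COL1A1, log2 -1.36, PECAM1, -2.73, and DCN with 0 and 0 counts against 7 in the control), and the FPKM summed over the 6 listed was 3.18 and 2.64 in AGS labelled NINJ1 against 7.47 in the AGS control. Of 4 mesenchymal markers FN1 alone passed (log2 -1.61), and their summed FPKM was 105.4 and 116 in AGS labelled NINJ1 against 93.6 in the control. Of 2 tested leukocyte markers 0 passed (0 also at an unadjusted p under 0.05 by edgeR), with a summed FPKM over the 8 listed of 0.593 and 1.24 against 1.70 in the control. Of 4 tested epithelial markers KRT8 was lower (log2 -0.44), with a summed FPKM of 117.8 and 116.3 against 139.4 in the control. The part of the mitochondrial share and of these markers in the results was not tested.

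The third comparison asked the same within HGC-27, again 2 libraries against 1. The members split, with 16 higher and 17 lower of 44 in HGC-27 labelled NINJ1 (edgeR), against 34.0% and 29.1% of all genes. Their median log2 difference was -0.02, and that of all genes 0.12. The higher members had a median GC content of 55.8% and the lower ones of 42.2%, and the HGC-27 control held few counts from GC-rich genes. With GC correction 13 were higher and 15 lower, against 22.8% and 26.4% of all genes. Of the 33 members called without the correction 24 still passed with it, 1 of them, IFITM3, in the other direction. The mitochondrial share of counts was 3.75% and 3.39% in HGC-27 labelled NINJ1 and 6.50% in its control. Without GC correction all 4 tested epithelial and all 4 mesenchymal markers were lower in HGC-27 labelled NINJ1. Of 4 tested fibroblast and endothelial markers 2 were lower and 1 higher, and of 2 leukocyte markers 0 passed. The part of these in the results was not tested.

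**Figure D5:**
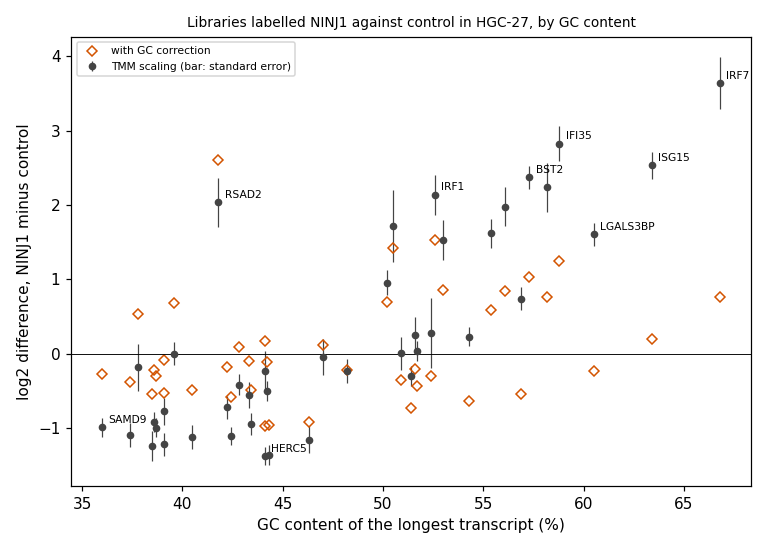
Log2 difference, libraries labelled NINJ1 minus control in HGC-27 (2 libraries against 1), against the GC content (%) of the longest transcript, for 42 tested members. Filled points with bars are the edgeR estimate ± standard error and open diamonds the estimate with GC correction. The filled points climb with GC content, to 3.63 for IRF7, and the diamonds of ISG15, LGALS3BP and IRF7 lie much nearer 0. IFITM1 and IRF9 are left out because a library was at or near 0.

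BST2 (tetherin) had 145 and 170.3 scaled CPM in HGC-27 labelled NINJ1 against 30.5 in the HGC-27 control. It was 5.17-fold higher (log2 2.37, SE 0.16, edgeR adjusted p = 1.8e-14) and remained higher with GC correction, at log2 1.03 (edgeR adjusted p = 1.25e-07). IFI35, which pairs with NMI in innate signalling, had 28.8 and 29.8 against 4.13 in the control (log2 2.82, SE 0.23, edgeR adjusted p = 2.49e-12), and log2 1.24 with GC correction. These were the 2 of the 6 members with the smallest p that stayed higher.

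ISG15 was higher by log2 2.53 (SE 0.18, edgeR adjusted p = 7.8e-14) and by 0.19 with GC correction (edgeR adjusted p = 0.245). IRF7, the factor that amplifies interferon production, had 11.1 and 14.8 scaled CPM in HGC-27 labelled NINJ1 against 1.03 in the control (log2 3.63, SE 0.35, edgeR adjusted p = 7.82e-11), and log2 0.76 with GC correction (edgeR adjusted p = 0.103). LGALS3BP was higher by log2 1.61 (SE 0.16, edgeR adjusted p = 9.41e-11), and its sign turned with GC correction (log2 -0.24, edgeR adjusted p = 0.125). For these 3 GC-rich genes, a change with the NINJ1 label and the GC skew of the control cannot be told apart.

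HERC5, the ligase that attaches ISG15, had 106 and 108 scaled CPM in HGC-27 labelled NINJ1 against 279 in the control. It was 2.60-fold lower (log2 -1.38, SE 0.13, edgeR adjusted p = 2.1e-11) and log2 -0.98 with GC correction (edgeR adjusted p = 1.06e-08). HERC6, IFIT3 and PARP14 were also lower under both, by log2 -1.15, -1.36 and -1.11 and, with GC correction, -0.93, -0.96 and -0.58. RSAD2, which has a GC content of 41.8%, was higher under both, with 10.5 and 13.2 scaled CPM in HGC-27 labelled NINJ1 against 2.89 in the control (log2 2.03, and 2.60 with GC correction). IRF1 was higher by log2 2.14 and 1.53 with GC correction. IFITM3 was higher by log2 0.74 without GC correction and lower with it (log2 -0.54), both past the threshold.

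The difference between the NINJ1 effects, AGS minus HGC-27, passed the edgeR test in 29 of 44 members, with 11 higher and 18 lower, against 23.9% and 30.2% of all genes. ISG15 differed by log2 -3.75 (SE 0.24), being lower with the NINJ1 label in AGS and higher in HGC-27. With GC correction 7 were higher and 16 lower, against 18.9% and 16.4% of all genes. The difference for ISG15 was then log2 -1.13 (edgeR adjusted p = 3.04e-05) and that for IFITM2 -1.88 (edgeR adjusted p = 1.02e-06). IFIT3 showed no difference between the lines past the threshold (log2 0.38, SE 0.22, edgeR adjusted p = 0.146), its change being -0.97 in AGS and -1.36 in HGC-27. With GC correction the difference for IFIT3 was log2 -0.06 (edgeR adjusted p = 0.819). RSAD2 was at log2 0.97 in AGS (edgeR adjusted p = 0.224) and 2.03 in HGC-27, with a difference of -1.06 (SE 0.66, edgeR adjusted p = 0.177), and -1.71 with GC correction (edgeR adjusted p = 0.0521).

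Other genes of the pathway were taken as a list of 114, of which 80 were tested. The interferon genes themselves were near 0: IFNB1 had 1 and 1 counts in AGS labelled NINJ1 and 0 in the AGS control, against 7 and 8 in HGC-27 labelled NINJ1 and 0 in the HGC-27 control. Every IFNA gene in the list had at most 1 count per library and IFNG had 0. IFNE, an epithelial interferon, was the 1 ligand tested, with 7 to 22 counts per library, and passed in no comparison.

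Between the lines, in the libraries labelled NINJ1, 44 of the 80 were lower in AGS and 11 higher (edgeR), against 20.0% and 20.2% of all genes. Of 11 receptor and signalling genes 4 were lower and 2 higher. IFNAR1 was higher in AGS (log2 0.71, SE 0.11, edgeR adjusted p = 4.59e-06) and JAK1 lower (log2 -0.54, SE 0.11, edgeR adjusted p = 0.000109). TYK2 did not pass, nor did IFNAR2, which had 3 to 13 counts per library. Of the exonic bases of IFNAR2 83.2% are shared with other genes on either strand and 44.2% on its own strand, so its counts are uncertain. Of 13 genes that induce interferon 7 were lower and 1 higher, led by TMEM173 (STING, log2 -3.97, SE 0.31), the endosomal receptor TLR3 (-2.58), NLRC5 (-1.07) and the adaptor MYD88 (-1.48). Of 12 negative regulators 4 were lower, including the phosphatase PTPN6 (-2.57), and 3 higher. Of 43 other interferon-stimulated genes 29 were lower and 5 higher, led by APOL6 (-6.39), PARP10 (-5.18) and APOL1 (-4.35). PARP10, with a GC content of 66.9%, had 12 and 27 counts in AGS labelled NINJ1 against 764 and 857 in HGC-27 labelled NINJ1. In the controls it had 45 counts in AGS and 32 in HGC-27, so the line difference was not seen there. UBE2L6, the enzyme that passes ISG15 to its ligase, had 0 counts in all 3 AGS libraries against 393 and 472 in HGC-27 labelled NINJ1 and 240 in the HGC-27 control, so that AGS was at least 127-fold lower in the libraries labelled NINJ1.

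Inside AGS, 14 of the 80 were lower and 11 higher in the libraries labelled NINJ1 (edgeR), against 9.30% and 5.73% of all genes. Of the 43 other interferon-stimulated genes 8 were lower and 8 higher, with a median log2 difference of 0.00. The 4 with the smallest p were 2 lower and 2 higher. The chemokine CXCL10 had 6 and 1 counts in AGS labelled NINJ1 against 39 in the AGS control (log2 -3.38, SE 0.67, edgeR adjusted p = 0.000454), and CCL5 had 24 and 35 against 90 (log2 -1.55, SE 0.30, edgeR adjusted p = 0.000391). The nucleotidase NT5C3A was higher (log2 0.62, edgeR adjusted p = 0.00386), as was TRIM5, a restriction factor of retroviruses (0.83, edgeR adjusted p = 0.00391). Of the signalling genes, JAK2 was higher (log2 0.67, edgeR adjusted p = 0.0381), while JAK1, TYK2, IFNAR1 and IFNAR2 did not pass. Of those that induce interferon NLRC5, IKBKE and TMEM173 were lower (log2 -0.62, -0.86 and -1.45) and the kinase TBK1 was higher (0.50). Of 12 negative regulators 3 were lower, SOCS3 (log2 -0.70), RNASEH2C (-0.645) and PTPN6 (-1.11), and 1 was higher, PTPN11 (0.53).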

How the data were processed

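Polyadenylated RNA was sequenced from 6 libraries: 2 labelled NINJ1 and 1 negative control in each of AGS and HGC-27. Per the file headers, each deposited table gives every Ensembl gene a read count and an FPKM. The deposited counts are whole numbers, made per the submitters' processing notes with HISAT2 and HTSeq 0.13.5 on GRCh38. The strand setting is not given in the sources used here. The authors' FPKM scales the count by gene length and library total, per the file headers, and served only for levels. Coordinates and GC content came from GENCODE, in which all 51103 identifiers were found.

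The count tests used edgeR 4.0.16 (R 4.3.3) on the counts as deposited: filterByExpr with a minimum count of 10, TMM scaling, and two-sided quasi-likelihood F tests with Benjamini-Hochberg adjustment over 17617 genes, at a threshold of 0.05. Scaled CPM are counts divided by the TMM-scaled library total (edgeR's cpm). The 4 means per line and label shared 1 spread, which comes from the 2 pairs of libraries labelled NINJ1, and each control is assumed to vary like them. The line over all libraries was fitted with treatment as an additive term. SE is the log2 difference divided by the square root of F. The GC correction fitted each library's deviation from the gene mean against GC content (lowess, span 0.3) and entered the curve as an offset. Simulated counts served to check the fits. A count of 0 allows a mean of up to 3 counts, and such bounds cover counting error only.

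Totals of 12619684 to 18175697 counts set the precision. The alternatives were DESeq2 1.42.0, its size factors, other filters, lines as titled, the replicate number as a block and each library left out. Values in every library are given for the 12 members with the smallest p between the lines and the 6 with the smallest p in each NINJ1 comparison and in their difference, and other members by role. Of the pathway list, JAK1, TYK2, IFNAR1 and IFNAR2 were always named (1 further gene of that rule is not reported here), with up to 4 called genes of smallest p per sublist. RSAD2, IRF1 and the members that lost calls were singled out after their values were seen. The members and lists were chosen with earlier results of these data known. Replicates of 1 group differed by more than sampling noise (chi-square per gene of 4.01 in AGS and 11.3 in HGC-27).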

Additional observations from a re-analysis of the deposited data

Results flagged for a closer look

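In 6 members the change with the NINJ1 label differed between AGS and HGC-27 by a direct test of the difference (edgeR interaction, AGS minus HGC-27), and these are the 6 with the smallest p. ISG15 differed by log2 -3.75 (adjusted p = 1.19e-14), LGALS3BP by -3.28 (2.56e-13), IFITM2 by -2.98 (1.02e-11), IFI35 by -3.18 (7.02e-11), BST2 by -2.12 (1.45e-10) and IRF7 by -4.07 (8.25e-10). All 6 rest on 1 control per line, and all have a GC content of at least 55.4%. With GC correction the differences were log2 -1.13, -1.26, -1.88, -1.47, -0.67 and -0.78 in the same order, of which that of IRF7 no longer passed (edgeR adjusted p = 0.173).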

How the results depend on the processing

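The counts of members called kept their size, within 1.5 times, with DESeq2, DESeq2's size factors, no filter, a minimum count of 30 and GC correction, in all 6 comparisons. The members behind these counts changed in part. Among the results followed per member, GC correction ended 19 calls, began 9 and turned 7 signs, and DESeq2 ended 11. The lines as titled gave 0 called members for the line in the libraries labelled NINJ1, over all libraries, for NINJ1 in AGS and for the difference, 4 for the controls and 3 for NINJ1 in HGC-27. Leaving out 1 library gave 29 to 36 members for the line in the libraries labelled NINJ1, 9 to 15 for NINJ1 in AGS, 33 to 34 for NINJ1 in HGC-27, 26 to 33 for the difference and 40 for the controls. Over all libraries it gave 33 without either control, 5 without HGC-27 replicate 1, 9 without HGC-27 replicate 2, 6 without AGS replicate 1 and 8 without AGS replicate 2, and 12 without replicate 2 of both lines. The 33 without either control repeats the comparison of the libraries labelled NINJ1, on which the line difference then rests alone. Replicate numbers did not pair the libraries (correlation of same-numbered deviations 0.021, 2 pairs). With the replicate number as a block 6 members were called over all libraries in place of 21, and counts elsewhere were within 1.5 times.

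With the lines as titled, signs of the line difference turned in IFIT1 (0.21), IFIT2 (0.097), DHX58 (0.003), IFI44L (0.15), IFI35 (0.07), ISG15 (0.33), OAS1 (0.092), MX1 (0.19), RSAD2 (0.25), BST2 (0.052), IFITM1 (1.05), IFITM2 (0.18) and IFITM3 (0.23), all log2. The same reading turned the NINJ1 change in AGS for IFIT1 (0.51), IFIT2 (1.06), IFIT3 (1.09), IFI6 (0.067), ISG15 (0.20), OAS1 (0.23), OASL (1.02) and LGALS3BP (1.61), and the difference for IFIT2 (2.33), DHX58 (1.99), OAS1 (1.14), OASL (2.09), IFITM1 (2.50) and LGALS3BP (0.91). GC correction turned the NINJ1 change in HGC-27 for IFIT2 (0.083), OAS3 (-0.64), IFITM3 (-0.54), PLSCR1 (0.68), LGALS3BP (-0.24) and ZNFX1 (-0.44), and the difference for OAS3 (0.57). The lines as titled swap the disputed pair. In the line check, AGS replicate 2 by file name showed 0 of 15 HGC-27 genes and 13 of 13 AGS genes. HGC-27 replicate 2 by file name showed 15 of 15 and 0 of 13. The cause of each turn was not tested otherwise. Each control is a single library, so a change with the label and a property of that library cannot be told apart.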
